A study of Mus musculus with 10 samples.

Results

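Foxp3 T cells were the T cells of SW1 melanomas in which at least 1 UMI (unique molecular identifier, the tag of 1 captured RNA molecule) of Foxp3 was counted. Foxp3 is the transcription factor that defines regulatory T cells and lies at chrX:7573644-7595245 on the forward strand of GRCm38. Members were chosen by their Foxp3 count together with further limits: 500 genes or more, no more than 10% mitochondrial UMIs, 1 or more UMIs of Cd3d, Cd3e or Cd3g, no Cd8a or Cd8b1, and at most 2 UMIs of the macrophage genes C1qa, C1qb and C1qc. By this rule 181 of 41936 barcodes were members, out of 31156 that passed the filters on genes and mitochondrial UMIs and 4391 with a CD3 UMI and the same C1q limit. The rule reads measured counts, so the Foxp3, CD3, CD8 and C1q levels of the members are a description and were not tested.

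SW1 is a mouse melanoma cell line, grown here under the skin of female C3H/HeJ mice that were 4 to 6 weeks old at injection. L-fuc (L-fucose), a dietary sugar, was supplied in the drinking water, and CD45+ cells were sorted from the tumors, pooled by cohort and run on the 10x Genomics droplet system. The 5 pools were a pretreatment cohort at day 0, control water at day 7, L-fuc at day 7, control water at day 21 and L-fuc at day 21, each with 1 gene expression library and 1 T cell receptor library. The labels give 10 days of tumor growth before day 0 (the study's methods give a longer time), label the day 0 cohort as control water, and state the L-fuc dose as 100 mM in one protocol and 100 nM in the other. They give 3 pretreatment mice and 6 mice per later cohort in the extraction protocol but 5 mice per arm in the treatment protocol. With 1 pooled library per condition and no mouse identified, conditions were compared as single libraries with no test, and every interval below covers counting error only.

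The libraries held 1725, 20741, 15288, 2754 and 1428 barcodes and 14439185, 119047810, 88986101, 21727157 and 16589803 UMIs, in the order of the pools given above. Members numbered 30 in the pretreatment library, 74 in control day 7, 70 in L-fuc day 7, 5 in control day 21 and 2 in L-fuc day 21. Their median depth was 3654.5, 3600, 5421, 3876 and 17320 UMIs. The day 21 libraries therefore entered no gene comparison, and their values are given as counts. Of the barcode sequences, 706 occurred in more than 1 library, among them those of 5 members, and no barcode was a member in both libraries of a pair.

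Regulatory T cells are CD4+ T cells that restrain other lymphocytes. They carry a high-affinity IL-2 receptor whose alpha chain is encoded by Il2ra, the inhibitory receptor CTLA-4, the TNF receptor family members OX40 (Tnfrsf4) and GITR (Tnfrsf18), and often the Ikaros family factor Helios (Ikzf2). In tumors they are known for an activated state, in which these receptors are raised, and they make little IL-2 themselves.

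The members carried these partner genes, which the rule did not read. Of the 181 members, 118 (65.2%) had UMIs of at least 3 of Il2ra, Ikzf2, Ctla4, Tnfrsf18 and Tnfrsf4, 161 had at least 1, and 20 had none. The share with at least 3 was 76.7% in the pretreatment library, 44.6% in control day 7 and 80.0% in L-fuc day 7, and 4 of 5 and 2 of 2 members reached it at day 21. The control day 7 members thus matched the label least often. Conventional CD4 T cells (same limits, at least 1 Cd4 UMI, Foxp3 at 0) reached it in 27.9% of 423, with 20.9%, 10.9% and 33.2% in the pretreatment, control day 7 and L-fuc day 7 libraries and 13 of 18 and 4 of 5 cells at day 21, so that at day 21 the partner genes did not set the members apart from them. The share was 7.32% of 765 CD8 T cells (Cd8a or Cd8b1 present, Foxp3 and Cd4 at 0) and 5.66% of 159 barcodes with a Foxp3 UMI and no CD3 UMI.

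Foxp3 itself was sparse, with 1 UMI in 100 members, 2 in 32 and 3 or more in 49. Just inside the threshold, 45.0% of the members with 1 Foxp3 UMI had 3 or more partner genes, and just outside it 6.13% of the 3297 CD3 barcodes without CD8 and with Foxp3 at 0 did. Of those 3297, 1958 were from control day 7, where the 2 shares were 36.2% and 2.04%. They were 50.0% and 13.9% in the pretreatment library and 61.3% and 10.5% in L-fuc day 7. At day 21 the barcodes outside reached 14 of 42 in the control and 8 of 40 with L-fuc. Over all libraries, members with 2 or more Foxp3 UMIs reached 90.1%. At the C1q limit, 42.5% of the 40 members with 2 C1q UMIs had 3 or more partners, against 59.3% of the 27 barcodes with 3 C1q UMIs that the limit left out, but the order differed between libraries, with 10 of 28 against 8 of 14 in control day 7 and 6 of 8 against 2 of 7 in L-fuc day 7. Cd4 UMIs were found in 79 members, among them 9 of 30 in pretreatment, 20 of 74 in control day 7 and 43 of 70 in L-fuc day 7. A T cell receptor was recovered from 116 members, of which 79.3% had at least 3 partners against 26 of the 65 without a receptor.

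**Figure D1:**
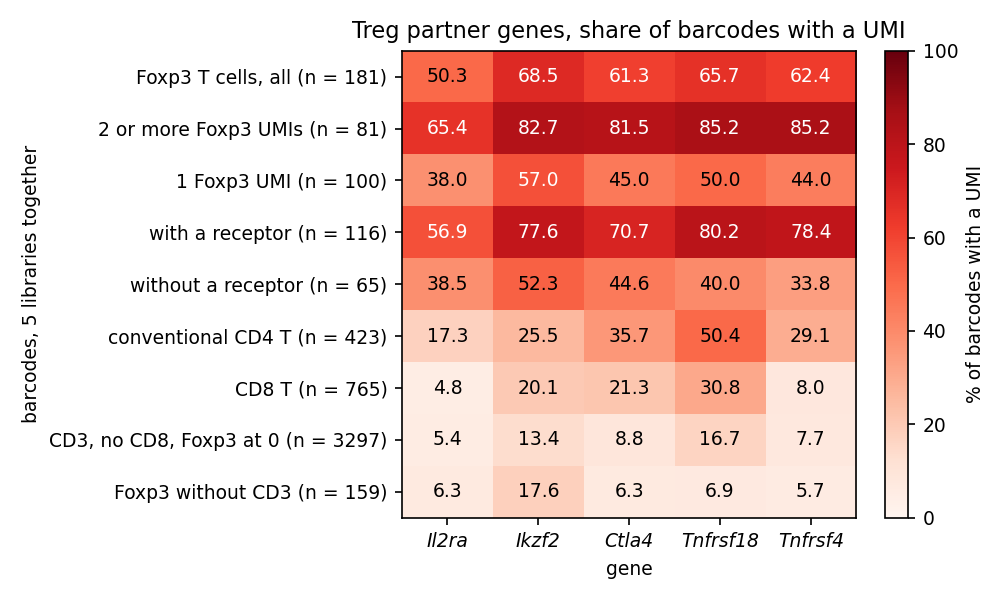
Share of barcodes (%) with at least 1 UMI of each of 5 regulatory T cell partner genes (columns), for the Foxp3 T cells, subsets of them and 4 other groups of barcodes (rows), all 5 libraries together. Shares run from 50.3% to 68.5% in all members, from 65.4% to 85.2% in members with 2 or more Foxp3 UMIs, and from 5.4% to 16.7% in CD3 barcodes with Foxp3 at 0.

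The partner genes were also compared with 1000 UMIs drawn from every cell, a step that dropped 1, 2 and 1 members and 2, 5 and 0 conventional cells of the pretreatment, control day 7 and L-fuc day 7 libraries. Thinned, Il2ra was seen in 27.6%, 20.8% and 24.6% of members and in 1.12%, 6.90% and 3.23% of conventional CD4 T cells. Ctla4 was seen in 37.9%, 25.0% and 43.5% of members and in 5.62%, 4.60% and 23.0% of conventional cells. In each of the 3 libraries the members had the larger share of both. Ikzf2 was seen in 34.5%, 30.6% and 47.8% against 5.62%, 12.6% and 10.6%, Tnfrsf18 in 62.1%, 20.8% and 40.6% against 15.7%, 12.6% and 20.7%, and Tnfrsf4 in 51.7%, 15.3% and 40.6% against 8.99%, 5.75% and 12.4%. In control day 7 the exact 95% intervals of members and conventional cells overlapped for these 3 genes and for Il2ra, and did not for Ctla4 (15.5 to 36.6 against 1.27 to 11.4).

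RNA of other cells was present in the members and differed between libraries. UMIs of an SW1 tumor list (8 genes, of which at most 4 were above 0 in the members, the most abundant being Sparc) were found in 6.67% of pretreatment, 83.8% of control day 7 and 44.3% of L-fuc day 7 members, with summed levels of 54.3, 2595 and 1028 UMIs per 1000000 (CPM). Mia, Dct, Pmel and Mlana of that list were at 0 in the members of these 3 libraries. Although CD45+ cells were sorted, many barcodes had tumor list UMIs but no UMI of CD3 or of Ptprc, the gene of CD45. They were 306 of 1470 passing barcodes in the pretreatment library, 10701 of 17897 in control day 7 and 3634 of 9034 in L-fuc day 7. The 5 red cell genes, led by Hbb-bs, summed to 0, 1796 and 4625 CPM, and the 8 macrophage genes to 869, 695 and 255 CPM, led by Lyz2 and, at day 7, by Apoe. Conventional CD4 T cells of control day 7 and L-fuc day 7 had 2867 and 899 CPM of the tumor list and 201 and 3720 CPM of the red cell list. At day 7, tumor RNA was thus higher in the control library and red cell RNA in the L-fuc library, in members and in conventional cells. Their part in the results below was not tested, except where a repeat without tumor list UMIs is given.

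Foxp3 T cells made up 7.67% of CD3 barcodes in the pretreatment library (30 of 391, exact Clopper-Pearson 95% interval 5.24 to 10.8), 3.05% in control day 7 (74 of 2423, 2.41 to 3.82) and 4.81% in L-fuc day 7 (70 of 1454, 3.77 to 6.04). At day 21 they made up 7.04% in the control (5 of 71, 2.33 to 15.7) and 3.85% with L-fuc (2 of 52, 0.469 to 13.2). The L-fuc over control ratio was 1.58 at day 7 (exact conditional 95% interval 1.12 to 2.22) and 0.546 at day 21 (0.0520 to 3.34), where it was 1.23 among receptor-bearing barcodes (0.112 to 8.61). Among all barcodes that passed the filters, members were 2.04%, 0.413%, 0.775%, 0.318% and 0.169%, and these shares also depend on how many other cells each sort held.

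The day 7 ratio changed with the barcodes and UMI minimums that were used, and the cause was not tested. A receptor was recovered from 77.5% of the CD3 barcodes of the pretreatment library, 17.0% of those of control day 7 and 40.4% of those of L-fuc day 7, while 3.58%, 94.1% and 53.4% of them carried tumor list UMIs. Among CD3 barcodes with a receptor the member share was 7.59% (23 of 303), 8.98% (37 of 412) and 8.50% (50 of 588), with a day 7 ratio of 0.947 (0.607 to 1.49). The share was also lower with L-fuc than in the control when 2 CD3 UMIs were required (ratio 0.938, 0.640 to 1.38). The same held when barcodes were thinned to 1000 UMIs (0.936, 0.580 to 1.51) and when no tumor list UMI was allowed (0.685, 0.352 to 1.44). The share was higher with L-fuc when 2 Foxp3 UMIs were required (4.06, 2.22 to 7.79). It was also higher with no C1q UMI (1.86, 1.09 to 3.25) and without CD8 barcodes in the denominator (1.75, 1.25 to 2.47). The ratio was 1.67 without Scrublet doublets, 1.58 with 20% mitochondrial UMIs allowed, 1.49 with 200 genes required and 1.37 with no C1q limit. For background, Foxp3 UMIs occurred in 0.721%, 0.747%, 0.453%, 0.824% and 0.550% of barcodes with no CD3 UMI, at median depths of 7318, 5682, 6860, 8556 and 2677 UMIs, below the share in CD3 barcodes of each library. Barcodes with CD3 and CD8 but no Cd4 UMIs had Foxp3 in 2.88% (3 of 104), 4.46% (16 of 359) and 2.98% (9 of 302) of the pretreatment, control day 7 and L-fuc day 7 libraries, at median depths of 4881.5, 2884 and 4058 UMIs. CD3 barcodes without CD8 had it in 11.5%, 3.64% and 6.39%, at 3549, 4536 and 3668 UMIs, so in control day 7 the share without CD8 was not above that with CD8, also when thinned to 1000 UMIs (1.71% and 2.25%). CD3 barcodes with Cd4 and without CD8 of that library had Foxp3 in 17.9% (20 of 112, 11.3 to 26.2), and in 5.66% when thinned.

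**Figure D2:**
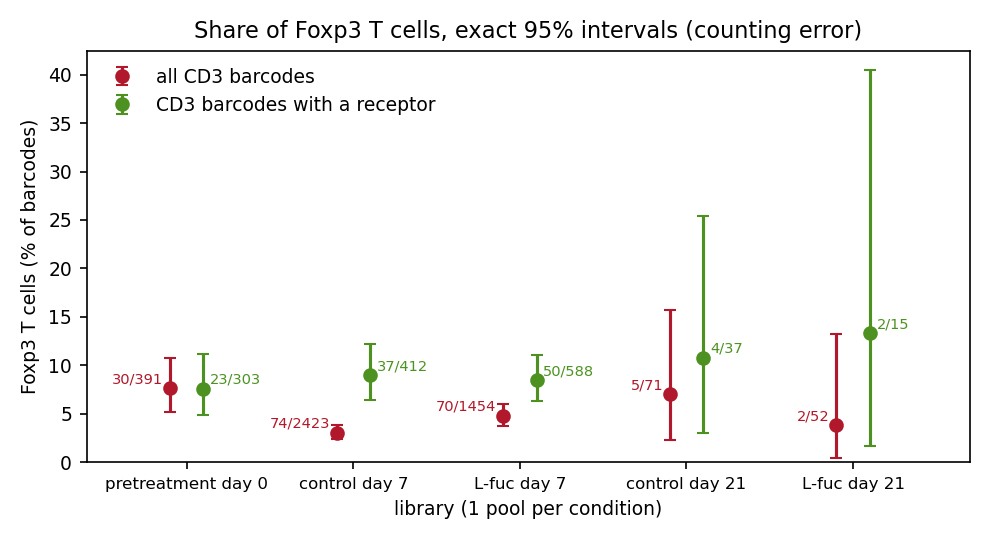
Share of Foxp3 T cells (%, y axis) in each library (x axis, 1 pool per condition), among all CD3 barcodes (red) and among CD3 barcodes with a T cell receptor (green), with exact 95% intervals for counting error and the counts beside each point. At day 7 the points for all CD3 barcodes lie at 3.05% and 4.81%, and those with a receptor at 8.98% and 8.50%.

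Receptor sequences, a readout that the rule did not use, showed which members belonged to expanded clonotypes (barcodes of a library with the same receptor). The 116 receptor-bearing members fell into 96 clonotypes, and 12 clonotypes held 2 or more members, 32 members in all. None of these 12 was in the pretreatment library, 5 were in control day 7 with 12 members, and 7 were in L-fuc day 7 with 20 members. The CDR3 sequences (the part of each chain that most often touches the antigen) of the clonotypes with the most members are printed 5′ to 3′ from the receptor libraries, with the first codon, for the conserved cysteine, and the last codon, for the closing phenylalanine, in capitals.
Control day 7 clonotype13 TRB: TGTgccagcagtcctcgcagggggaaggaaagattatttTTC
Control day 7 clonotype13 TRA: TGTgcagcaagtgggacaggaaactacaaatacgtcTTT
L-fuc day 7 clonotype8 TRB: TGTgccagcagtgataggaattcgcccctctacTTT
L-fuc day 7 clonotype9 TRB: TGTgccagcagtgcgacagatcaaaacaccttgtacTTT
L-fuc day 7 clonotype9 TRA: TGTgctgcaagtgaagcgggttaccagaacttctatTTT
L-fuc day 7 clonotype27 TRB: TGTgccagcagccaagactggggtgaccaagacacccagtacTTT

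Control day 7 clonotype13 (TRBV19 with TRBJ1-4) held 8 barcodes, 4 of them members and 1 a conventional CD4 T cell. Clonotype21 of that library (5 barcodes, 2 members) had the same TRB CDR3 with no alpha chain recovered, and clonotype23 (5 barcodes, 2 members) the same TRA CDR3 with no beta chain. The 3 clonotypes thus shared the chains printed first and second. In L-fuc day 7, clonotype8 (TRBV13-1 with TRBJ1-6) held 12 barcodes and 4 members, clonotype9 (TRBV13-1 with TRBJ2-4) 11 barcodes and 4 members, and clonotype27 (TRBV5 with TRBJ2-5) 5 barcodes and 3 members. Clonotype7 of the same library (12 barcodes, 3 members) had only the TRA CDR3 of clonotype9. None of these clonotypes held a CD8 T cell, whereas 4 other member clonotypes of control day 7 and 1 of L-fuc day 7 did. Clonotypes of 2 or more barcodes with a member numbered 18 in control day 7 and 14 in L-fuc day 7. Conventional CD4 T cells were found in 4 and 5 of these. In the L-fuc library there were 2 in clonotype8, 1 in clonotype9 and 1 in clonotype7. Clonotype2 (19 barcodes, 1 member) held 11 and clonotype18 (6 barcodes, 1 member) held 2.

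Beta chain gene usage followed these clonotypes. TRBV13-1 was used by 11 of 47 L-fuc day 7 members with a beta chain, including the 4 of clonotype8 and the 4 of clonotype9, and by 1 of 31 control day 7 members. TRBV19 was used by 8 of 31 control day 7 members, including 4 of clonotype13 and 2 of clonotype21, and by 4 of 47 L-fuc day 7 members. No beta chain CDR3 was shared by members of different libraries, and 1 beta chain CDR3 of L-fuc day 7 members occurred in control day 7 barcodes that were not members.

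The share of receptor-bearing members in a clonotype of 2 or more barcodes was 4.35% in the pretreatment library (1 of 23), 67.6% in control day 7 (25 of 37) and 54.0% in L-fuc day 7 (27 of 50), with 1 of 4 and 0 of 2 at day 21. Conventional CD4 T cells had 15.2% (12 of 79), 38.1% (16 of 42) and 53.1% (85 of 160), and CD8 T cells 39.1% (36 of 92), 69.0% (116 of 168) and 67.2% (129 of 192). These shares count every barcode of a clonotype, of any class. Of the 25 and 27 members at day 7, 12 and 20 had another member in their clonotype. Across the 5 libraries the members differed from conventional CD4 T cells by a mean of -0.43 percentage points (SD 19.1, n = 5, lower in 2 and higher in 2, exact two-sided sign-flip permutation p = 1.0). They differed from CD8 T cells by -19.9 points (SD 21.8, n = 5, lower in 4 and tied in 1, exact p = 0.125). In the 3 libraries with at least 10 members the mean differences were 6.50 points from conventional CD4 T cells (higher in 2 of 3, exact p = 0.75) and -16.5 points from CD8 T cells (lower in 3 of 3, exact p = 0.25, the smallest that 3 libraries allow), so the sign against conventional cells turned without day 21, where 4 and 2 members had a receptor. The smallest p that 5 libraries allow is 0.0625. L-fuc day 21 was tied in both comparisons (0 of 2 members, 0 of 5 conventional and 0 of 6 CD8 T cells), and with 1 tie the smallest is 0.125. Neither comparison could therefore pass 0.05, and the p against CD8 T cells was the smallest it could reach. With the day 7 libraries drawn down to the 386 receptor barcodes of the pretreatment library, the member shares were 4.35%, 51.0% and 42.9%, so both day 7 values stayed above the pretreatment value at equal numbers of receptors.

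**Figure D3:**
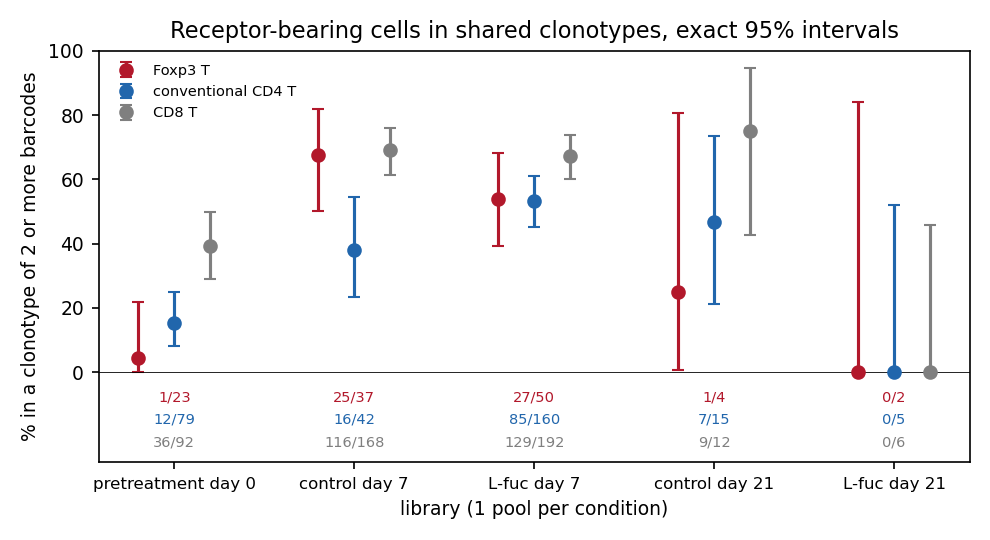
Share (%, y axis) of receptor-bearing Foxp3 T cells (red), conventional CD4 T cells (blue) and CD8 T cells (grey) in a clonotype of 2 or more barcodes of any class, by library (x axis), with exact 95% intervals and counts under each library. Foxp3 T cells lie at 4.35% before treatment and at 67.6% and 54.0% in the control and L-fuc libraries of day 7.

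Genes were next compared between Foxp3 T cells and conventional CD4 T cells of the same library, which asks what else the Foxp3 cells expressed. The Ikaros factors Ikzf2 and Ikzf4, the IL-2 receptor alpha chain Il2ra, the TNF receptors Tnfrsf4, Tnfrsf9, Tnfrsf18 and Tnfrsf1b, the inhibitory receptors Ctla4 and Tigit, and the secreted or granule products Areg and Gzmb were higher. The chemokine Ccl1, the TNF ligand Tnfsf8, the helper ligand Cd40lg and the stemness factor Tcf7 were lower. So was the cytokine Ifng, which in the pretreatment library was not lower in members. In 3 libraries with at least 10 cells of both classes, 39 of 6272 genes tested were higher (0.622%) and 24 lower (0.383%) at an edgeR adjusted p under 0.05, 1.0% in all, with a median log2 fold change of -0.02. For 61 of the 63 the sign was the same in all 3 libraries. The calls came from these same libraries, so the shared sign is a description and no further support. With the library left out as a block 0 genes passed (156 of 6272 at an unadjusted p under 0.05), and 11 of the 63 passed without each library in turn, namely Ly6a, Rln3, Ikzf2, Tnfrsf4, Izumo1r, Tnfrsf1b, Areg and Ctla4 higher and Ccl1, Tnfsf8 and Atf3 lower.

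Among 16 transcription factors tested, 2 rose and 1 fell, with a median log2 fold change of 0.07. Ikzf2 stood at 326, 374 and 646 CPM in the members of the pretreatment, control day 7 and L-fuc day 7 libraries and at 52.2, 92.8 and 96.9 CPM in conventional CD4 T cells. The log2 fold change was 2.41 ± 0.20 (SE, n = 3 libraries, edgeR adjusted p = 0.000249). Ikzf4, which encodes the related factor Eos, had 48.9, 34.7 and 40.0 CPM against 5.40, 8.84 and 8.36 CPM (2.29 ± 0.40, edgeR adjusted p = 0.0217). Tcf7, a factor of naive and memory T cells, had 65.2, 18.7 and 41.8 CPM against 259, 46.4 and 92.7 CPM, lower in each library (-1.56 ± 0.26, edgeR adjusted p = 0.0164). Batf (0.76 ± 0.25, edgeR adjusted p = 0.295), Maf (0.94 ± 0.29, 0.273) and Prdm1 (0.93 ± 0.34, 0.364), known from effector regulatory T cells, did not pass.

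In the IL-2 receptor list, 1 of 11 tested genes passed. Il2ra had 467, 166 and 244 CPM in members and 23.4, 50.8 and 62.7 CPM in conventional cells (2.43 ± 0.35, edgeR adjusted p = 0.00863). The shared chains Il2rb (0.58 ± 0.21, edgeR adjusted p = 0.348) and Il2rg (0.51 ± 0.18, 0.345) and the feedback inhibitors Socs1 (0.11 ± 0.28, 0.958) and Cish (0.42 ± 0.32, 0.742) did not pass. Il2 was under the count minimum, and its UMIs in members were 0 in all 5 libraries.

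The TNF receptor and CD28 family list had 4 of 8 tested genes higher and none lower, with a median log2 fold change of 1.10. Tnfrsf4 (OX40) had 761, 257 and 651 CPM in members against 187, 55.3 and 205 CPM (1.84 ± 0.18, edgeR adjusted p = 0.000691). Within each library members were higher, although the control day 7 members lay close to the conventional cells of the other libraries. Tnfrsf9 (4-1BB) had 782, 238 and 618 CPM against 119, 57.5 and 301 CPM (1.76 ± 0.27, edgeR adjusted p = 0.0114), and Tnfrsf18 (GITR) and Tnfrsf1b (TNF receptor type II) rose by 1.20 ± 0.18 and 1.65 ± 0.19. Icos, an inducible costimulator of the CD28 family, had 451, 118 and 315 CPM against 103, 88.4 and 195 CPM and did not pass (0.99 ± 0.27, edgeR adjusted p = 0.184).

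**Figure D4:**
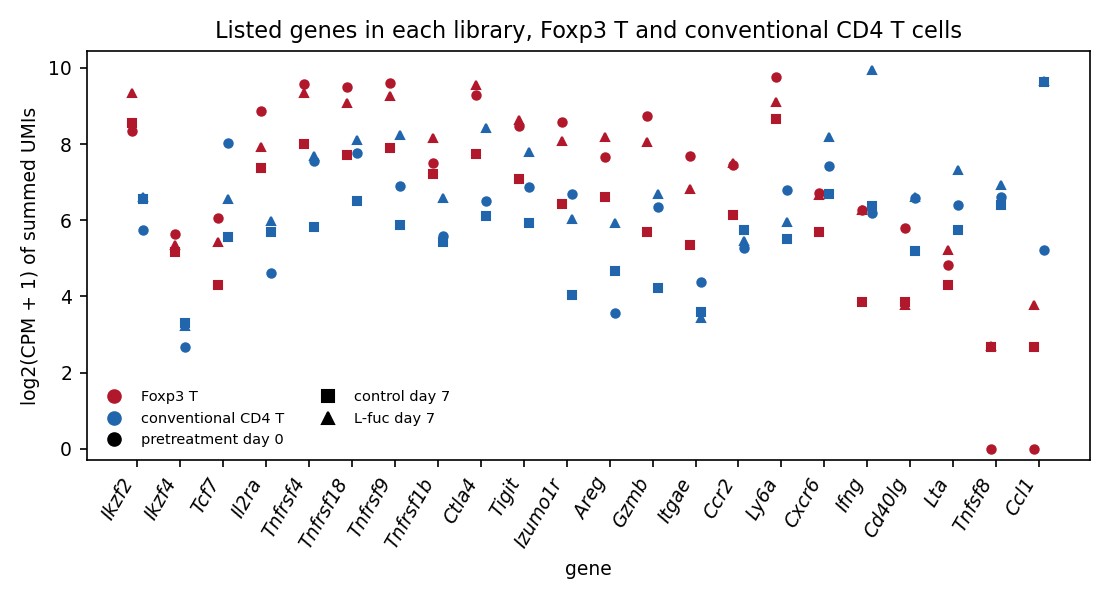
Level of listed genes (x axis) as log2(CPM + 1) of UMIs summed over cells (y axis) in Foxp3 T cells (red) and conventional CD4 T cells (blue) of the pretreatment (circle), control day 7 (square) and L-fuc day 7 (triangle) libraries. Red points lie above the blue points of the same library for Ikzf2, Il2ra and Ctla4 and below them for Tnfsf8 and Ccl1.

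Of 17 suppressor and inhibitory genes tested, 5 rose and none fell, with a median of 0.52. Ctla4 had 619, 211 and 755 CPM in members against 90.0, 68.5 and 340 CPM (1.70 ± 0.26, edgeR adjusted p = 0.0114), and Tigit 353, 134 and 395 CPM against 115, 59.7 and 221 CPM (1.08 ± 0.19, 0.0257). Izumo1r, the folate receptor family gene known as a regulatory T cell surface marker, rose by 1.95 ± 0.20, and Gzmb, a granule protease, by 1.68 ± 0.23 (edgeR adjusted p = 0.000858 and 0.00489). Areg, the growth factor amphiregulin, had 201, 96.2 and 293 CPM against 10.8, 24.3 and 59.9 CPM (2.52 ± 0.29, edgeR adjusted p = 0.00171). Its 37 pretreatment UMIs came from 5 members, 45.9% of them from 1 cell. Il10 (0.21 ± 0.47), Tgfb1 (0.34 ± 0.25), Lag3 (-0.27 ± 0.20) and Pdcd1 (-0.27 ± 0.25) did not pass, at edgeR adjusted p of 0.946, 0.740, 0.732 and 0.805, nor did Klrg1 (2.80 ± 0.61, 0.0714). Nt5e, Lrrc32, Il1rl1 and Gpr83 were under the count minimum.

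Homing genes moved in both directions, 2 up and 1 down of 13 tested, with a median of 0.19. Itgae, the alpha E integrin that binds E-cadherin, had 206, 40.1 and 113 CPM against 19.8, 11.1 and 9.76 CPM (3.10 ± 0.32, edgeR adjusted p = 0.000858). The chemokine receptors Ccr2 (1.60 ± 0.30, edgeR adjusted p = 0.0333) and Cxcr6 (-1.25 ± 0.21, 0.0188) rose and fell. Of the 3 monocyte markers tested, Ccr2 was thus higher while Ly6c2 was lower, and of 2 NK markers Gzma was lower. No macrophage, red cell or SW1 tumor gene passed (medians -0.26, 1.25 and 0.13), nor did the 1 neutrophil gene tested (-2.48). Ccr8, known from tumor regulatory T cells, had 109, 69.5 and 145 CPM against 61.2, 46.4 and 98.3 CPM and did not pass (0.56 ± 0.19, edgeR adjusted p = 0.324).

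Of 5 effector and helper genes tested, 2 fell and none rose, with a median of -1.15. Ifng had 76.1, 13.4 and 76.4 CPM in members against 72.0, 81.8 and 991 CPM (-2.67 ± 0.54, edgeR adjusted p = 0.0480). The L-fuc day 7 sums differed most. In the pretreatment library the members were not below the conventional cells, and 13 of the 14 UMIs of members there came from 1 cell. Cd40lg, which activates B cells and dendritic cells, fell by 1.91 ± 0.38 (edgeR adjusted p = 0.0441). In the other lists, 1 of 10 cell cycle genes rose (Pclaf, 1.26 ± 0.23, edgeR adjusted p = 0.0285, list median 0.60), and none passed of 5 fucosylation genes (median -0.23), 8 interferon-stimulated genes (-0.43) or 7 class I antigen presentation genes (0.22). Fut8, the core fucosyltransferase, differed by -0.44 ± 0.37 and Gmds, of GDP-fucose synthesis, by 1.19 ± 0.37 (edgeR adjusted p = 0.778 and 0.277), and the other 12 of the 17 fucosylation genes were under the count minimum.

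Outside the lists, Ly6a, the surface antigen Sca-1, had the smallest p of the higher genes, with 869, 406 and 555 CPM in members against 110, 44.2 and 61.3 CPM (3.02 ± 0.19, edgeR adjusted p = 1.74e-05). Rln3, a relaxin family hormone, had the largest fold change (5.89 ± 0.49, edgeR adjusted p = 0.000232), and its UMIs came from 6, 7 and 12 members, 66.0% of the 47 pretreatment UMIs from 1 cell. The transcription factor gene Myb (2.53 ± 0.40), the serpin Serpina3g (2.05 ± 0.22), Neb (2.04 ± 0.41) and Arl5a (2.01 ± 0.25) rose as well. Of the lower genes, Ccl1 had 0, 5.34 and 12.7 CPM in members and 36.0, 791 and 806 CPM in conventional cells (-6.39 ± 0.32, edgeR adjusted p = 5.94e-06), where it came from 5, 19 and 46 cells and 1 cell gave 49.2% of the control day 7 UMIs. Tnfsf8 (CD30 ligand) had 0, 5.34 and 5.46 CPM against 97.2, 84.0 and 121 CPM (-4.53 ± 0.40, edgeR adjusted p = 0.000335), and the synaptic calmodulin-binding gene Nrgn (-3.32 ± 0.32), the Rab GTPase regulator Tbc1d4 (-3.37 ± 0.41) and the RANK ligand Tnfsf11 (-2.75 ± 0.50) fell as well. Lta, Prf1, Hmox1, Cxcl10 and Stfa3 also fell, but 1 cell gave 89.6% of the pretreatment Hmox1 and 92.0% of the control day 7 Prf1 UMIs of conventional cells, and Cxcl10 turned direction when the C1q limit was lifted (0.13).

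Against CD8 T cells of the same libraries, the same members were compared a second time, so the 2 comparisons are not independent and their overlap is not given. Here 112 of 7084 genes were higher (1.58%) and 67 lower (0.946%), 2.53% in all, with a median log2 fold change of 0.01. For 178 of the 179 the sign was the same in all 3 libraries, again a description of genes called from those libraries. With the library left out as a block 0 passed (311 of 7084 at an unadjusted p under 0.05), and 35 higher and 28 lower genes passed without each library in turn. The costimulator list had 6 of 8 genes higher (median 1.79), the suppressor list 7 of 16 (0.65), the transcription factors 6 higher and 1 lower of 16 (0.55) and the homing list 3 higher and 2 lower of 13 (0.41).

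Il2ra had 467, 166 and 244 CPM in members and 23.0, 17.3 and 15.2 CPM in CD8 T cells (3.77 ± 0.21, edgeR adjusted p = 2.08e-06), and Tnfrsf4 was at 94.9, 34.1 and 23.6 CPM in CD8 T cells (3.49 ± 0.32, 8.37e-05). The highest log2 fold changes outside the lists were those of Rln3 (3.86 ± 0.35), the muscle gene Neb (3.04 ± 0.34) and the T cell receptor adaptor Trat1 (2.41 ± 0.39). Ccr8 (2.79 ± 0.36, edgeR adjusted p = 0.00122), Icos (2.20 ± 0.19, 6.12e-05), Maf (1.83 ± 0.30, 0.00576), Batf (1.23 ± 0.20, 0.00565) and Ebi3, a subunit of IL-27 and IL-35 (2.90 ± 0.39, 0.00161), rose in this comparison and did not pass against conventional CD4 T cells, a difference that was not itself tested. Lower in members were the cytotoxic and CD8-associated genes Ccl5 (-2.96 ± 0.19, edgeR adjusted p = 3.73e-06), Gzmk (-3.14 ± 0.23, 1.87e-05) and Gzma (-2.61 ± 0.23, 8.31e-05), and Crtam, Ly6c2, Ccl1, Cxcl10, Pde3b, Atp8b4 and Sema4a fell as well, between -2.39 (Sema4a) and -3.97 (Crtam), of which Cxcl10 turned direction when the C1q limit was lifted (0.043). Gzmb had 429, 50.8 and 266 CPM in members and 177, 62.3 and 233 CPM in CD8 T cells and did not pass (0.37 ± 0.22, edgeR adjusted p = 0.571). Of the lists, 1 of 9 interferon-stimulated genes (Ifi27l2a) and 1 of 10 cell cycle genes (Pclaf) rose, and none passed of 7 fucosylation and 7 class I genes.

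The L-fuc and control members of day 7 were set side by side as 1 library against 1 library, to describe what accompanied L-fuc in these cells. Among 4529 genes with at least 30 UMIs over both libraries, 237 (5.23%) were more than 2-fold higher and 444 (9.8%) more than 2-fold lower with L-fuc, 15.0% in all, on a log2 scale with a pseudocount of 1 UMI. The median log2 ratio, relative to which single genes are to be read, was -0.10 in members (0.19 when thinned to 1000 UMIs), -0.11 in conventional CD4 T cells and -0.12 in CD8 T cells. Of the 8 costimulators 5 were past 2-fold higher and none lower (median 1.30), of 15 suppressor genes 7 (0.70), of 13 homing genes 7 (1.03) and of 14 transcription factors 6 (0.62). The same lists had medians of 1.47, 1.41, 1.03 and 0.73 in conventional CD4 T cells and 0.87, 0.81, 0.84 and 0.50 in CD8 T cells of the same 2 libraries, so higher list medians with L-fuc were seen in all 3 classes.

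The compared sets matched the label to a different degree. Of L-fuc members 80.0% and of control members 44.6% had 3 or more partner genes, Ctla4 and Tnfrsf4 among them. Likewise 39 of 70 and 16 of 74 had 2 or more Foxp3 UMIs, and 43 of 70 and 20 of 74 had a Cd4 UMI. The part of these differences in the ratios was not tested. Ctla4 gave 415 UMIs (755 CPM) with L-fuc and 79 UMIs (211 CPM) in the control, a log2 ratio of 1.82 (95% interval 1.49 to 2.20). Tnfrsf4 gave 358 and 96 UMIs (1.33, 1.01 to 1.68), Tnfrsf9 340 and 89 (1.37, 1.04 to 1.73) and Icos 173 and 44 (1.40, 0.94 to 1.93). Each was also higher in conventional cells, by 2.27, 1.84, 2.34 and 1.11. The lymph node homing receptor Ccr7 (96 and 12 UMIs, 2.34, 1.57 to 3.45) was higher in members, and in conventional cells its ratio was 2.41. Itgae was at 1.42 (0.66 to 2.41) in members and at -0.34 in conventional cells, Ikzf2 at 0.78 and 0.04, and Il2ra at 0.54 and 0.26. The Itgae ratio of conventional cells is imprecise, because its level there was low (mean 13.5 CPM in the libraries of the class comparison, against 120 CPM in members). Whether members and conventional cells differed in these ratios cannot be tested with 1 library per condition.

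The cell cycle list had medians below 0 with L-fuc in all 3 classes, -0.66 in members, -1.12 in conventional and -0.47 in CD8 T cells. Mki67, a proliferation marker, was the single one past 2-fold in members, with 68 UMIs against 99 (-1.09, -1.56 to -0.64), and it stood at 109 CPM in the pretreatment members against 265 and 124 CPM at day 7. The fucosylation list had 3 genes with enough UMIs (median -0.22), none past 2-fold. Class I genes had a median of 0.48 (0.87 in conventional cells), none past 2-fold.

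The other-cell lists moved in the same comparison. The SW1 tumor list had 3 of 4 genes past 2-fold lower (median -1.34 in members, -1.70 in conventional and -1.20 in CD8 T cells), led by Sparc with 315 UMIs against 731, and the red cell list 4 of 5 genes past 2-fold higher (medians 1.57, 3.95 and 2.41). All 3 monocyte markers, Plac8, Ly6c2 and Ccr2, were past 2-fold higher (medians 2.53, 1.45 and 1.44), of which Ccr2 is also in the homing list, as were the NK cell markers Gzma and Ncr1 (2.61, 2.76 and 1.88). Ly6c2 and Gzma were also counted in CD8 T cells, at means of 227 and 297 CPM in the class comparison, so these 2 lists cannot be read as RNA of other cells alone. The macrophage genes Lyz2 and Apoe (-1.33, -1.66 and -0.90) and the dendritic cell gene Fscn1 (-1.49, -0.98 and -1.09) were past 2-fold lower in members. Their part in the higher costimulator and homing lists was not tested. Of the 3 T cell receptor constant region genes, Trac and Trbc2 were past 2-fold higher with L-fuc, and Trbc1 was at 0.77 (median 1.23). In receptor-bearing members Ctla4, Tnfrsf4, Tnfrsf9 and Icos had log2 ratios of 1.91, 1.36, 1.53 and 1.95. In members without a tumor list UMI the ratios were 0.95, 1.26, 1.11 and 0.47 on 15, 13, 12 and 11 control UMIs, and Ikzf2 was at 0.00, with Mki67 at -1.71. Without tumor list UMIs, Icos and Ctla4 were thus no longer past 2-fold, and the few control UMIs leave these ratios imprecise.

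**Figure D5:**
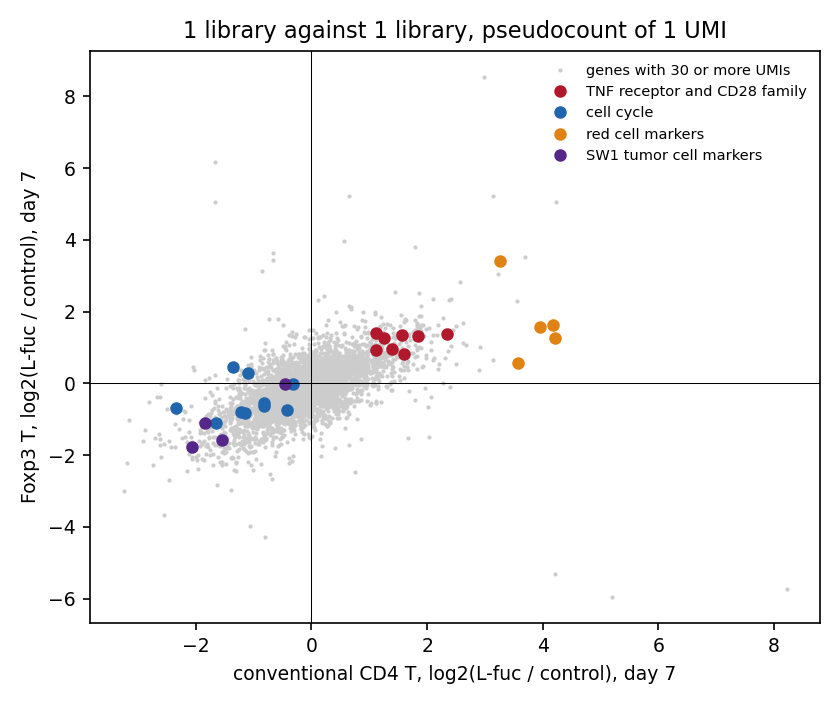
Log2 ratio of L-fuc over control at day 7 in conventional CD4 T cells (x axis) and in Foxp3 T cells (y axis), 1 library against 1 library, for genes with at least 30 UMIs in Foxp3 T cells (grey) and 4 lists (colors). All 8 costimulators (red) lie above 0 on both axes, the red cell genes (orange) likewise, and the SW1 tumor genes (purple) at or below 0.

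The largest single ratios of day 7 often came from 1 barcode. Mpo (104 UMIs), Ctsg (54), Prtn3 (48) and Clec3b (31), the first 3 granule genes of myeloid precursors, were each counted in 1 L-fuc member, as were 239 of the 244 UMIs of Jchain, a plasma cell gene. S100a8 (35 UMIs) and S100a9 (41), neutrophil genes, and 106 of the 108 UMIs of Ifitm1 were each from 1 control member. Cd7, a T and NK cell surface gene, was spread wider, with 61 UMIs in 17 L-fuc members against 2 UMIs in the control (3.81, 2.46 to 7.45), and the NK receptor gene Ncr1 had 33 UMIs in 8 members against 1 (3.53, 1.91 to 9.84). Ccl2, a chemokine gene, had 54 UMIs in 5 L-fuc members, 34 of them in 1, against 2 (3.64). Among the 8 lowest ratios were also those of Slpi (9 UMIs against 131, of which 64.1% were in 1 control member, -4.28), Col8a1 (2 against 31, -3.97), Cytl1 (5 against 51, -3.67) and Prkg2 (6 against 36, -2.96).

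At day 21 the 5 control members had 16 Foxp3, 50 Ctla4, 22 Tnfrsf18, 18 Tnfrsf4, 15 Ikzf2 and 4 Il2ra UMIs, and all 5 had a Cd4 UMI. The 2 L-fuc members had 17 Foxp3, 41 Ctla4, 15 Tnfrsf18, 13 Tnfrsf4, 21 Ikzf2 and 6 Il2ra UMIs. Both sets carried all 5 partner genes, and no change with time or treatment was read from 7 cells.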

How the data were processed

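The 5 pooled 10x gene expression libraries and the 5 receptor libraries of the same pools were used. The authors aligned reads to mm10 with Cell Ranger (3.0 in the submitters' processing notes, 7.1.0 in the matrix headers) and deposited an unnormalized UMI count per gene and barcode. For receptors the authors deposited clonotypes with barcode counts and the fraction each makes of the library. Seurat 4.0 is also named in those notes.

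Members, gene lists and tests were chosen with earlier results of these data known. UMIs were summed per library and class, for libraries with at least 10 cells of both classes, and tested with edgeR 4.0.16 in R 4.3.3 (quasi-likelihood, TMM, library as block, filterByExpr minimum of 10, Benjamini-Hochberg over all genes tested, threshold 0.05). The library blocks pair classes because both come from 1 pool. Gate genes (Foxp3, Cd3d, Cd3e, Cd3g, Cd4, Cd8a, Cd8b1, C1qa, C1qb, C1qc) were not counted. Genes named are those of the lists, the 10 highest and 10 lowest called fold changes of each class comparison with 1 sign in every library (8 of each for day 7), and the 10 largest F among higher genes, leaving out receptor, immunoglobulin, mitochondrial, ribosomal and unnamed (Gm, Rik) genes. Further genes that kept their call without each library were named after their values were seen, and some genes that the rule names are not reported here. Lists of class markers and of pathways were described by counts and medians. Thinning used 1000 UMIs. Scrublet in scanpy 1.11.5 marked 0.8% of barcodes per 1000 barcodes, by highest score, a share chosen after seeing the data, and it marked 28 members, which were kept. DESeq2 1.42.0, RLE size factors and the other alternatives are in the closing section, and the repeats with no C1q limit, without tumor list UMIs, with receptor-bearing cells at day 7 and with equal receptor numbers were chosen after seeing the data. The edgeR step was tested on simulated data. Positions are from GENCODE vM21 on GRCm38. Python 3.11.15, numpy 2.4.6, pandas 2.3.3, scipy 1.17.1 and matplotlib 3.10.9 were used. PCR copies are collapsed by UMI, and intervals and binomial limits cover counting error only.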

Additional observations from a re-analysis of the deposited data

Results flagged for a closer look

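The L-fuc over control ratio of the Foxp3 T cell share among CD3 barcodes was above 1 at day 7 (1.58) and below 1 at day 21 (0.546). The difference between the days was not tested, the day 21 value rests on 5 and 2 members, and the order turned among receptor-bearing barcodes, where the ratio was 0.947 at day 7 and 1.23 at day 21 (2 of 15 against 4 of 37, 0.112 to 8.61). With no C1q UMI the day 21 ratio was 2.09 (2 of 44 against 1 of 46). Foxp3 barcodes outside the members also carried the partner genes. Of 142 barcodes that met every limit but had more than 2 C1q UMIs, 103 (72.5%) had at least 3 of the 5 partner genes and 95 had a receptor. Of 51 Foxp3 barcodes that had Cd8a or Cd8b1 UMIs, 34 (66.7%) had at least 3 partner genes. Both shares are above the 5.66% seen in Foxp3 barcodes without CD3. Median depths in the pretreatment, control day 7 and L-fuc day 7 libraries were 7268, 8659 and 9594 UMIs for the C1q barcodes and 11745, 3628 and 7082.5 for those with CD8. They were 3654.5, 3600 and 5421 for members and 21151, 5864 and 13559 for Foxp3 barcodes without CD3. The part of depth in these shares was not tested.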

How the results depend on the processing

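The share of Foxp3 T cells among CD3 barcodes changed under several alternatives. The day 7 ratio of 1.58 became 4.06 with at least 2 Foxp3 UMIs. It fell below 1 with at least 2 CD3 UMIs (0.938), with barcodes thinned to 1000 UMIs (0.936), with receptor-bearing barcodes (0.947) and without tumor list UMIs (0.685), all with intervals that spanned 1. In the other alternatives it stayed above 1, from 1.37 with no C1q limit to 1.86 with no C1q UMI. The cause was not tested. With at least 2 Foxp3 UMIs the pretreatment, control day 7 and L-fuc day 7 shares were 5.12%, 0.660% and 2.68%. With 2 CD3 UMIs the control and L-fuc day 7 shares were 6.89% and 6.46%, and thinned the pretreatment and L-fuc day 7 shares were 5.01% and 2.64%. Among receptor-bearing barcodes the shares were 8.98% and 8.50% at day 7 and 13.3% for L-fuc day 21. Without CD8 barcodes in the denominator the pretreatment and L-fuc day 7 shares were 11.5% and 6.39%, without tumor list UMIs control day 7 was 8.39%, and with no C1q UMI control day 21 was 2.17%.

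Counts of genes moved with the cells and the design. Without the library as replicate block, 0 genes were higher and 0 lower in both class comparisons. Leaving out 1 library at a time gave 15 to 77 higher and 5 to 78 lower genes against conventional CD4 T cells (16 and 14 without the pretreatment, 77 and 78 without the control day 7, 15 and 5 without the L-fuc day 7 library), and 49 to 142 higher and 45 to 84 lower against CD8 T cells (49 higher without control day 7, 72 without L-fuc day 7). Against conventional CD4 T cells higher and lower counts were 119 and 149 without a filter on low counts, 11 and 1 thinned (1125 genes tested), 61 and 47 with 2 Foxp3 UMIs, 97 and 54 for members with Cd4 (2 libraries), 14 and 6 with no C1q limit, and 41 lower among receptor-bearing cells. Against CD8 T cells they were 55 and 36 with DESeq2, 205 and 222 without the filter, 54 and 40 without tumor list UMIs, 61 higher thinned, 63 higher with no C1q UMI and 43 lower among receptor-bearing cells. Of 1043 values of the 78 named genes and comparisons, 792 kept direction and call, 249 lost the call and 2 reversed, those of Cxcl10 with no C1q limit (0.13 against conventional CD4 and 0.043 against CD8 T cells).

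At day 7, genes past 2-fold higher and lower were 54 and 47 thinned (622 genes), 138 and 186 with a minimum of 60 UMIs, 136 and 168 without Scrublet doublets, 154 and 195 with 2 Foxp3 UMIs and 146 and 93 without tumor list UMIs, with 209 lower for no C1q UMI, 224 lower among receptor-bearing cells and 823 lower with no C1q limit. Fewer genes reach the UMI minimum in smaller sets of cells. The clonotype difference from conventional CD4 T cells had no stable sign. It was -7.91 to 4.88 points without 1 library at a time (2.17 without pretreatment, 4.88 without control day 21), 0.18 when joined by TRB CDR3, 2.05 with both chains and 1.19 without Scrublet doublets, and the difference from CD8 T cells stayed below 0 in every one of these.

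With 1 library per condition, 3 libraries per class comparison and 181 members, small changes and rare transcripts such as Il2 were not detectable at this depth, and day 21 changes were not tested.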
